A study of Mus musculus with 8 samples.

Results

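Kinesin, dynein and tubulin genes of the mouse oocyte were examined in total and ribosome-bound mRNA. Members were the gene symbols of the kinesin (Kif, Kifc, Klc), cytoplasmic dynein (Dync, Dynl), dynactin (Dctn), tubulin (Tuba, Tubb, Tubg), gamma-tubulin complex (Tubgcp) and end-binding (Mapre) families, with Numa1, that are listed in both deposited expression tables. This gave 62 of the 8537 genes found in both tables. They comprised 44 motor genes (28 kinesins, 1 kinesin light chain, 11 dynein and 4 dynactin genes), 11 tubulins and 7 others. A further 11 matching symbols were listed only in the input table and 1 (Dync1li1) only in the HA table.

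Microtubules are polymers of alpha- and beta-tubulin that are nucleated by gamma-tubulin complexes. The meiotic spindle of the oocyte is built from them without centrioles, and kinesins and dynein slide, cross-link and depolymerize its microtubules or carry cargo along them. Transcription is silent in the maturing oocyte, so the proteins made at this stage come from stored mRNAs, many of which are switched on by cytoplasmic polyadenylation.

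MII oocytes (arrested in metaphase of the second meiotic division) came from C57BL/6 RiboTagF/F;Zp3-Cre females, either young (1 month) or old (retired breeders of 12 to 15 months). In all of them Cre, driven by the oocyte promoter Zp3, switches the ribosomal protein Rpl22 to an HA-tagged form, so that HA immunoprecipitation recovers ribosome-bound mRNA of oocytes. All females were primed with 5 IU PMSG and given 10 IU hCG after 48 h, and oocytes were taken 13 h later in pools of 200, 2 pools per age. Of every lysate, 10% served as input (total mRNA), and HA immunoprecipitation was run on the remainder. The 8 libraries held 37817382 to 60052814 reads on the listed genes. Values are CPM (library-size-scaled reads, adjusted by the authors with TMM separately for HA and for input), and 3 reads corresponded to 0.0388 to 0.111 CPM. Translation efficiency (TE) was HA over input within a pool. All 9 oocyte markers examined were present in both tables. Of 11 cumulus and granulosa cell markers, 7 were in the input table, where their summed level was 32.5 and 111 CPM in old and 77.1 and 142 CPM in young pools. In HA, only Ptgs2, Cyp19a1 and Fshr were listed, and they summed to 83.8 and 81.7 CPM in old and 156 and 182 CPM in young pools, whereas Foxl2, Amhr2 and Lhcgr were in neither table. Of 5 oviduct markers only Dnah5 was listed, at 3.71 to 13.1 CPM in input and 0.111 to 34.8 CPM in HA, and none of 5 blood markers was. In such bulk samples, fewer cells of a type and less RNA per cell cannot be told apart.

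The sites at which polyadenylation can be switched on are shown first, because many stored mRNAs of the oocyte are known to be regulated through them. The cytoplasmic polyadenylation element (CPE) is the motif bound by CPEB1. TTTTAT and TTTTAAT were searched on the sense strand of every gene's longest 3′-UTR in GENCODE M21 (GRCm38). Of the 61 members with a 3′-UTR, 33 held at least 1 such motif, or 54.1%, against 70.7% of 7930 genes. Of the 43 motors 27 did, or 62.8%. A motif lay within 100 bases of the end in 14.8% of members and 16.3% of motors, against 22.2% of genes. Among the 12 kinesins with a known role in the spindle or in cytokinesis, a group formed after the values were seen, 11 held a motif and 5 held one near the end. Of the 11 tubulins only Tuba4a and Tubb2b held one. The median 3′-UTR was 541.5 bases in these kinesins, 190 bases in tubulins and 1332 bases over all genes, and longer UTRs have more room for a match. The last motif of 6 genes whose values are given further on is printed in capitals within 30 bases of sense-strand sequence.
Kif23 (chr9:61917485-61917514, minus strand): tattttctaaggTTTTATaaaaaaaaaaaa
Kif20b (chr19:34975697-34975726, plus strand): cttgtatataaTTTTAATtcaataaatata
Kif14 (chr1:136531361-136531390, plus strand): ctatgaatggtaTTTTATgatgtaaagttt
Kif15 (chr9:123018401-123018430, plus strand): ttatttactttaTTTTATtttttttttttt
Dynlt3 (chrX:9654916-9654945, minus strand): tacaatgataaaTTTTATtgaattagtttc
Mapre3 (chr5:30866021-30866050, plus strand): atatctgttcagTTTTATttaaataaattt
The motif lay 31 bases from the annotated 3′ end in Kif20b, 68 in Mapre3, 133 in Kif14, 217 in Kif23, 315 in Kif15 and 661 in Dynlt3. Kif4 and Dynll1 had no match, which says only that these letters are not in the annotated window.

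The motors with the highest HA levels were spindle kinesins, but not every spindle kinesin was high. Levels were compared between genes per kilobase of annotated exon, and reads had been counted over whole genes. Kif23, the kinesin of the central spindle and midbody (mitotic kinesin-like protein 1), had the highest mean HA level per kilobase, at 228 CPM per kb. Kif4, a chromokinesin, followed at 158 CPM per kb and Kif20b, a kinesin of late cytokinesis, at 148 CPM per kb. The spindle kinesins Kif15, Kifc1 and Kif22 had 0.602, 1.42 and 4.15 CPM per kb, below the dynein gene Dynll2 at 24.2 CPM per kb. In input, the beta-tubulin Tubb6 led with 118 CPM per kb, ahead of Kif23 with 97.7 CPM per kb.

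In HA, Kif23 stood at 1744 and 2722 CPM in the old and 1175 and 1563 CPM in the young pools. In input it had 794 and 936 CPM in old and 686 and 674 CPM in young pools. Old and young pools did not overlap in either fraction. The log2 difference in HA was 0.68 (standard error 0.38, limma adjusted p = 0.494), and it was 0.36 without the second old pool, 0.04 with the libraries rescaled to the same sum, and turned to -0.01 after quantile normalization.

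Kif20b had 965 and 1832 CPM in old HA against 588 and 741 CPM in young HA. Its input values overlapped, with 327 and 560 CPM in old and 287 and 544 CPM in young pools. It differed by 1.01 on the log2 scale in HA (standard error 0.43, limma adjusted p = 0.352), or 0.29 after quantile normalization, 0.37 with the libraries rescaled to the same sum and 0.55 without the second old pool.

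Kif14, a kinesin of the central spindle needed for cytokinesis, was at 878 and 1007 CPM in old HA and 632 and 565 CPM in young HA. The difference was 0.65 on the log2 scale (standard error 0.36, limma adjusted p = 0.488), or -0.05 after quantile normalization. Kif4 had 893 and 1129 CPM in old HA and 577 and 883 CPM in young HA, and its log2 difference of 0.49 (standard error 0.40, limma adjusted p = 0.699) changed sign with the libraries rescaled to the same sum (-0.15) and after quantile normalization (-0.22). For both genes the old and young pools were separate in HA and overlapped in input.

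Kif11 (Eg5), the plus-end motor that pushes spindle poles apart, had 198 and 390 CPM in old HA and 265 and 141 CPM in young HA. The microtubule depolymerase Kif2a had 282 and 446 CPM in old HA and 199 and 241 CPM in young HA, without overlap, while Kif2c (MCAK), of the same family, had 99.95 and 100.2 CPM in old HA and 118 and 112 CPM in young HA. Kif18a, which limits chromosome oscillation, overlapped between ages in HA, with 159 and 358 CPM in old and 159 and 276 CPM in young pools, as did Kif20a, with 198 and 52.7 CPM in old and 81.9 and 45.7 CPM in young pools. The chromokinesin Kif22 went from 0.974 to 63.9 CPM between the old HA pools, and the minus-end kinesin Kifc1 from 5.04 to 0.37 CPM, and both overlapped between ages. Of the Kifc1 transcript, 58.7% of 36-base windows also occur in other genes, among them Kifc5b. The share was 32.2% for Kif20a, 23.9% for Kif2a and 16.7% for Kif4. Their first partners were Cdc23, Dimt1 and Pdzd11, whose spans overlap theirs, so part of their reads is uncertain in origin.

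**Figure D1:**
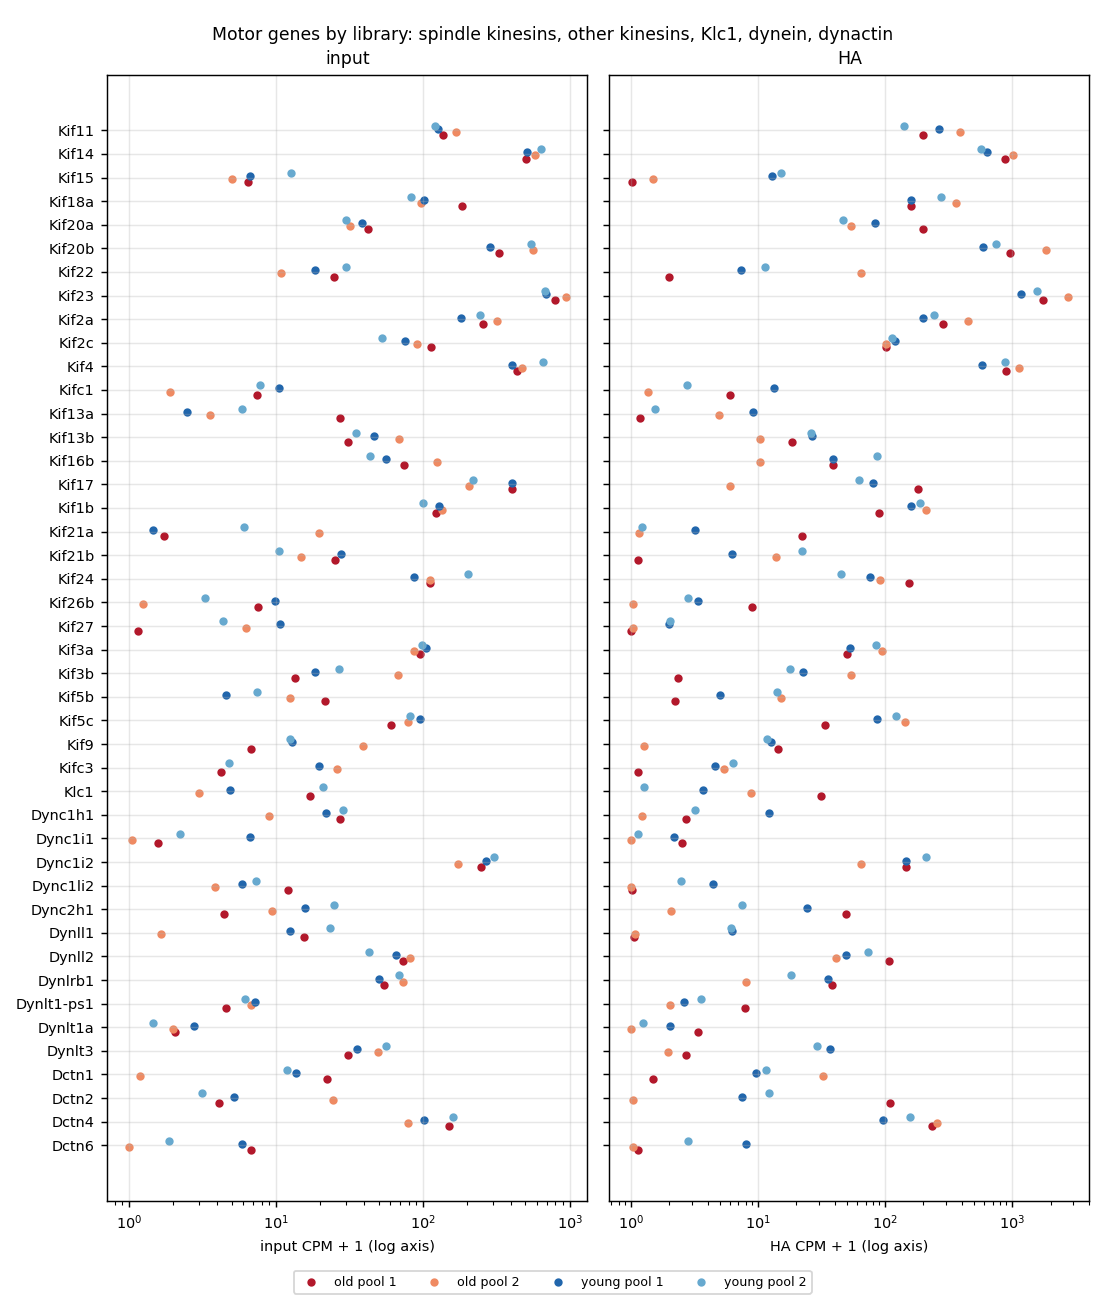
CPM + 1 (log axes) of the 44 motor genes in the 4 input libraries (left) and 4 HA libraries (right), 1 point per library; red tones are old pools and blue tones young pools. Old and young points of Kif23 lie at 1175 to 2722 CPM in HA with the old pools to the right, whereas the HA points of Dynlt3, Kif15 and Dynll1 lie far to the left in both old pools.

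Kif15 had both old HA pools below the young ones. This kinesin-12 helps to keep the spindle bipolar. In HA it had 0.0238 and 0.48 CPM in old and 11.9 and 14.2 CPM in young pools (chromosome 9, 122951046 to 123018733, plus strand). In input it had 5.49 and 4.03 CPM in old and 5.62 and 11.6 CPM in young pools. The log2 difference was -3.51 in HA (standard error 1.10, limma adjusted p = 0.297) and -2.83 in TE (standard error 0.99, limma adjusted p = 0.724). On the recovered reads its adjusted p in HA was 0.0407 in DESeq2. The edgeR likelihood ratio test gave an adjusted p of 0.106 and the edgeR quasi-likelihood test 0.362.

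The 16 other kinesins include most of the cargo motors. Their median absolute log2 difference between both old HA pools was 2.17, against 0.79 for the spindle kinesins and 1.29 over all genes of the HA table. Between both young HA pools it was 0.49, against 0.51 and 0.77. Kif17, a kinesin-2 motor, had an input of 406 and 205 CPM in old and 401 and 219 CPM in young pools. Its HA level was 181 and 4.95 CPM in old and 79.3 and 60.6 CPM in young pools, so that the old pools lay on both sides of the young ones. Kif5c, a heavy chain of conventional kinesin, likewise had 32.5 and 143 CPM in old HA and 84.6 and 120 CPM in young HA. Kif3a, a subunit of kinesin-2, overlapped at 48.8 and 93.1 CPM in old and 51.7 and 84.0 CPM in young HA. Kif27 was covered by 0 and 1 reads in old HA and by 77 and 59 in young HA. Scaled by library size, the young-to-old ratio was 70.1, with a 95% exact counting interval of 12.4 to 2790, which covers counting error only.

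Klc1, a light chain that links conventional kinesin to cargo, had 30.2 and 7.76 CPM in old HA and 2.65 and 0.264 CPM in young HA. In input it had 16.0 and 1.99 CPM in old and 3.90 and 19.8 CPM in young pools. TE was 1.88 and 3.91 in old and 0.679 and 0.0134 in young pools, without overlap, and its log2 difference was 3.44 (standard error 1.42, limma adjusted p = 0.724). It was 5.25 without the first young pool and 1.64 without the second. The span of the gene overlaps Xrcc3 on the other strand, and reads were counted over whole genes without strand. Of the 36-base windows of its longest transcript, 0% occur in another gene. How reads from the overlap were assigned was not tested.

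Of the 11 dynein genes, 5 had both old HA pools below the young ones and 0 had both above (24.7% and 17.2% of all genes). Dynein is the minus-end motor that focuses spindle poles, and dynactin is its activating complex. Dynlt3 (Tctex-type light chain; chromosome X, 9654267 to 9663003, minus strand) had 1.71 and 0.961 CPM in old HA and 35.5 and 28.2 CPM in young HA. Its input level overlapped between ages, at 30.1 and 48.8 CPM in old and 34.4 and 55.2 CPM in young pools. TE was therefore 0.0568 and 0.0197 in old and 1.03 and 0.511 in young pools. The log2 difference was -3.82 in HA (standard error 1.44, limma adjusted p = 0.313) and -3.64 in TE (standard error 1.19, limma adjusted p = 0.724). In DESeq2 on the recovered reads its adjusted p in HA was 0.00866. On the same reads it was 0.0959 in the edgeR likelihood ratio test and 0.308 in the edgeR quasi-likelihood test.

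Dynll1 (LC8 light chain; chromosome 5, 115297110 to 115300999, minus strand) had 2 reads in each old HA library and 400 and 293 in the young ones. Scaled by library size, the young-to-old ratio of reads was 89.3, with a 95% exact counting interval of 34.7 to 329. Input was 14.6 and 0.662 CPM in old and 11.4 and 22.3 CPM in young pools, so that the second old pool was also low in total mRNA. The log2 difference in HA was -2.54 (standard error 0.72, limma adjusted p = 0.297). Its paralog Dynll2 had 106 and 39.6 CPM in old HA and 48.2 and 72.0 CPM in young HA, with overlap.

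Dync1li2, a light intermediate chain that binds cargo adaptors, had 1 and 0 reads in old HA and 262 and 84 in young HA. Scaled by library size, its young-to-old ratio was 178 (95% exact counting interval 31.8 to 7067). Its log2 difference was -1.70 (standard error 0.55, limma adjusted p = 0.297). Dync1li2, Dynll1 and Kif27 met the naming rule of at most 3 reads in both old HA libraries. A high ratio was thus fixed by that rule, and these ratios and intervals are no test of age. Dctn6 had 0.143 and 0.037 CPM in old HA and 7.04 and 1.82 CPM in young HA, with a log2 difference of -2.13 (standard error 0.76, limma adjusted p = 0.304). Its input was 5.77 and 0 CPM in old and 4.89 and 0.867 CPM in young pools. Near 0, the log2(CPM + 1) scale understates such differences. After quantile normalization the log2 difference in HA was -1.32 for Dynll1, -0.74 for Dync1li2 and -0.95 for Dctn6, and for Dctn6 it was -1.37 without the first young pool.

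The intermediate chain Dync1i2 and the heavy chain Dync1h1 complete the 5 dynein genes that were separate. Dync1i2 had 143 and 63.3 CPM in old HA and 144 and 210 CPM in young HA, while its input was 248 and 173 CPM in old and 268 and 302 CPM in young pools. Dync1h1, which holds the motor domain, had 1.71 and 0.222 CPM in old HA and 11.1 and 2.19 CPM in young HA. The other 6 dynein genes overlapped between ages in HA, namely Dynll2, Dynlrb1, Dync1i1, Dync2h1, Dynlt1a and the pseudogene Dynlt1-ps1. Dync2h1, the heavy chain of the ciliary dynein, had 48.2 and 1.07 CPM in old and 23.2 and 6.45 CPM in young HA. Dync1i1, Dynlt1a and Dynlt1-ps1 were below 7 CPM in all 4 HA libraries. Dynlrb1, a roadblock light chain, had 37.3 and 7.02 CPM in old HA against 34.6 and 17.3 CPM in young HA. Dctn1, the p150Glued subunit, and Dctn2, dynamitin, were opposite in the old pools, with 0.475 and 31.5 CPM for Dctn1 and 107 and 0.037 CPM for Dctn2. Dctn4 was at 232 and 256 CPM in old HA and 95.3 and 155 CPM in young HA.

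Alpha-tubulin genes resemble each other, as do beta-tubulin genes. Within each family the coding sequences were less alike at the end, where the acidic tail is modified, than over their whole length. The last 30 coding bases are shown with the stop codon in capitals, because reads from the earlier parts can be shared.
Tuba1b (chr15:98931582-98931611, minus strand): gagggggaggaagaaggagaggagtacTAA
Tuba1c (chr15:99037980-99038009, plus strand): gaaggagacgatgagggtgaggaatatTAA
Tuba4a (chr1:75215622-75215651, minus strand): tatgaggacgaggatgagggagaagagTAG
Tubb2a (chr13:34074468-34074497, minus strand): gaggaggaggagggtgaagatgaggctTGA
Tubb2b (chr13:34127471-34127500, minus strand): gaggaggaagagggcgaggatgaggctTGA
Tubb4b (chr2:25222308-25222337, minus strand): gaggaggaggctgaggaggaggtggctTAG
Tubb5 (chr17:35834982-35835011, minus strand): ttcggagaggaggcagaagaggaggccTAA
The coding sequences of Tuba1b and Tuba1c were 97.9% identical, those of Tubb2a and Tubb2b 96.5%, and other pairs within a family 80.2% to 85.2%. In the last 60 bases Tuba1b and Tuba1c were 55% identical, but Tubb2a and Tubb2b still 95%, so their ends hardly separate them. Of the 36-base windows of the longest transcript, 85.3% were shared with another gene in Tuba1b, 66.7% in Tubb4b, 63.1% in Tuba1c and 54.0% in Tubb2a. The share was 50.4% in Tuba4a, where Stk16 was the first partner, 43.9% in Tubb2b and 38.9% in Tuba3b. Values of these genes are therefore uncertain as to which gene the reads came from.

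Tubb6 had the highest input of the tubulins, with 312 and 299 CPM in old and 325 and 216 CPM in young pools. In HA it had 114 and 5.80 CPM in old and 113 and 39 CPM in young pools. The gamma-tubulin Tubg2, part of the nucleating complex, had 409 and 14.2 CPM in old HA and 145 and 57.7 CPM in young HA. Both genes had one old HA pool at or above the young pools and the other below them.

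Tubb5 showed the same arrangement, with 268 and 18 CPM in old HA and 39.3 and 25.6 CPM in young HA. Tuba4a had 38.7 and 0.739 CPM in old HA and 54.2 and 27.3 CPM in young HA, and its span overlaps Stk16 on the other strand. In contrast, Tubb2a stayed within 50.8 to 62.5 CPM in all 4 HA libraries, and Tubb4b ranged from 48.2 to 113 CPM. In old HA, pool 1 was above pool 2 for 9 of 11 tubulins, with a median absolute log2 difference of 2.46, compared with 1.29 over all genes and with 0.90 for the tubulins between the young pools. It was 4.32 for the 2 gamma-tubulins, 1.73 for the 4 alpha-tubulins and 1.14 for the 5 beta-tubulins, and 2.30 for the 4 dynactin genes.

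Tuba1c was the only tubulin whose old and young HA pools did not overlap. It had 111 and 186 CPM in old and 52.5 and 57.6 CPM in young HA, and 25.4 and 32.0 CPM in old against 22.4 and 17.5 CPM in young input. On the log2 scale the HA values differed by 1.37 (standard error 0.64, limma adjusted p = 0.384), and by 0.74 with the libraries rescaled to the same sum. Its rank in TE lay between the 93rd and the 95th percentile of its pool in all 4 pools.

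**Figure D2:**
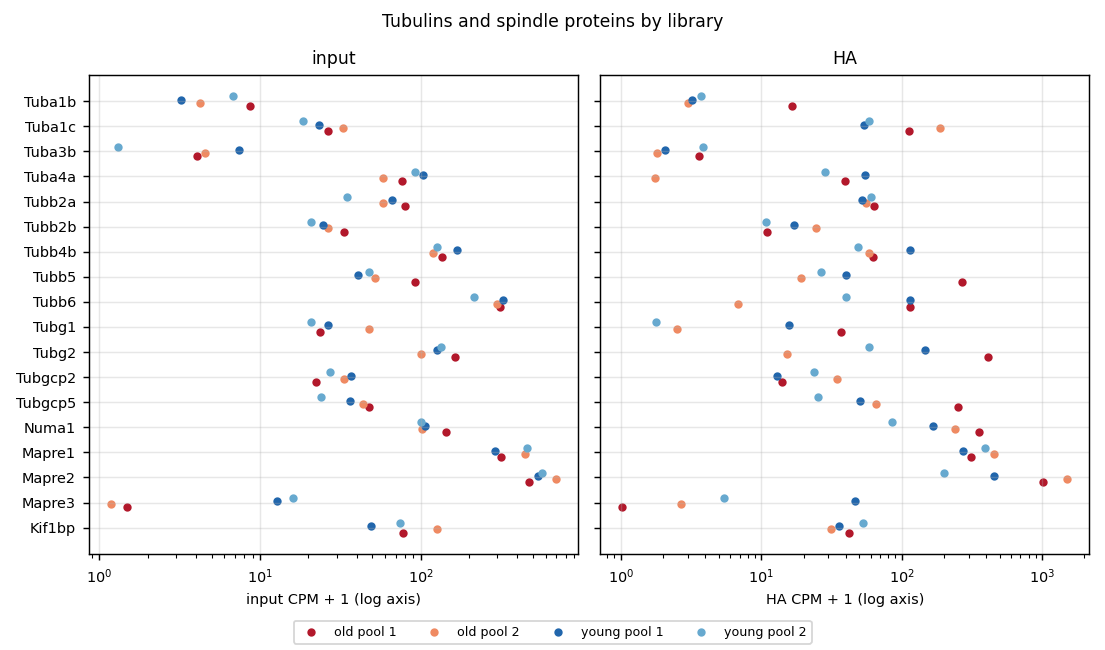
CPM + 1 (log axes) of the 11 tubulins and 7 other members in the 4 input (left) and 4 HA libraries (right), 1 point per library; red tones are old pools and blue tones young pools. In HA the 2 old points of Tubg2 lie at 409 and 14.2 CPM, on both sides of the young points, while both old points of Mapre2 lie to the right of both young points.

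Mapre2 and Mapre3 encode end-binding proteins, which track growing microtubule ends. Mapre2 had 1018 and 1504 CPM in old HA and 452 and 198 CPM in young HA. In input the ages overlapped, at 472 and 694 CPM in old and 541 and 571 CPM in young pools. The log2 difference in HA was 2.04 (standard error 0.51, limma adjusted p = 0.297), the smallest p of any member in that table, or 1.34 after quantile normalization, and in TE it was 2.00 (standard error 0.82, limma adjusted p = 0.724). Mapre1 had 310 and 455 CPM in old HA and 272 and 392 CPM in young HA, with overlap.

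Mapre3 (chromosome 5, 30814641 to 30866106, plus strand) was the one member with an unadjusted p under 0.05 in input. It had 0.496 and 0.181 CPM in old and 11.8 and 15.1 CPM in young input. In HA it had 0.0238 and 1.66 CPM in old and 45.5 and 4.42 CPM in young pools, also without overlap. The log2 difference in input was -3.43 (standard error 0.94, limma adjusted p = 0.778).

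Numa1, which anchors spindle poles, had 355 and 238 CPM in old HA and 167 and 84.6 CPM in young HA, and 143 and 101 CPM in old against 106 and 100 CPM in young input. Its log2 difference in HA was 1.29 (standard error 0.57, limma adjusted p = 0.362), and it was 0.65 with the libraries rescaled to the same sum and 0.80 without the second young pool. The gamma-tubulin complex gene Tubgcp5 had 249 and 64.6 CPM in old HA and 49.1 and 24.4 CPM in young HA, and Tubgcp2 had 13.1 and 33.5 CPM in old and 12.0 and 22.8 CPM in young HA.

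No member had an adjusted p under 0.05 in limma in input, HA or TE, where 0.0095%, 0.0% and 0.0% of all genes did. The smallest adjusted p over all genes of HA was 0.297 in limma, so a lack of calls does not show equal levels. The study, using likelihood ratio tests in edgeR, reported mRNAs that differed between ages in both fractions. At an unadjusted p under 0.05, 0 members were higher and 1 was lower in old input (background 2.71% and 3.48% of genes). In HA it was 1 higher, Mapre2, and 6 lower, namely Dynlt3, Kif15, Dynll1, Dync1li2, Dctn6 and Kif27 (background 4.28% and 10.5%). In TE it was 0 higher and 2 lower, Dynlt3 and Kif15 (background 2.33% and 4.23%). The shares of the 62 members are thus near those of all genes. At 2 pools per age, the smallest two-sided p of an exact permutation test is 0.333 for a single gene.

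Old pools lay above both young pools for 12 members in HA and below them for 11 (background 17.2% and 24.7% of genes). In input the counts were 12 and 9 (16.4% and 18.9%), and in TE 11 and 7 (17.2% and 20.4%). The median log2 difference of the motors was -0.01 in input, -0.38 in HA and -0.27 in TE. That of the tubulins was 0.39, 0.08 and -0.12, and that of all genes -0.03, -0.14 and -0.10. The tubulin median in HA became -0.51 with the libraries rescaled to the same sum, which moved the median of all genes to -0.68, and the motor median in HA became 0.41 in DESeq2. Without the first old pool the tubulin median in HA was -0.64, and without the second it was 0.77.

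The cumulus marker sum in HA was also lower in both old pools than in both young pools, and its part in these values was not tested.

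**Figure D3:**
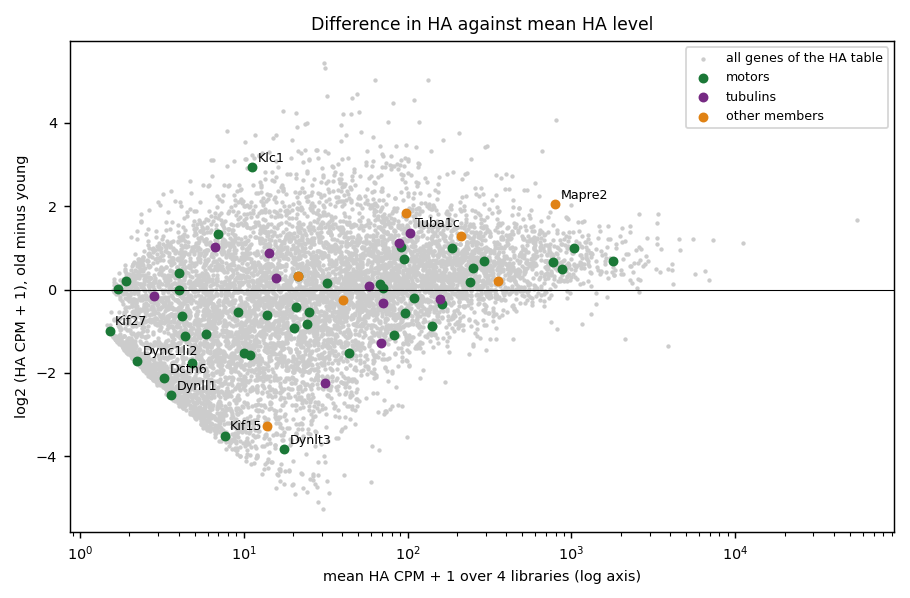
Difference of log2(HA CPM + 1), old minus young, against the mean HA CPM + 1 over 4 libraries (log axis), for all genes of the HA table (grey) and for motors (green), tubulins (purple) and other members (orange). Members spread through the grey cloud, with Dynlt3 at -3.82 and Mapre2 at 2.04.

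Genes were ranked within each pool by TE taken as log2(HA CPM + 1) minus log2(input CPM + 1). The added 1 draws genes with few reads towards a difference of 0, so their ranks also reflect their level. Kif27, with 0 HA reads in the first old pool, stood at percentile 55.2 there. Of the 12 spindle kinesins, 9 were above the 50th percentile of TE in all 4 pools, as were 15.6% of all genes, and their median percentile was 68.1 and 78.7 in old and 84.9 and 74.2 in young pools. Of the 16 other kinesins 0 were, and of the 11 dynein genes 0 were, while 4 dynein genes were below the 50th percentile in all pools against 12.3% of genes. The tubulin median was at 56.0 and 38.8 in old and 45.3 and 33.2 in young pools. This split of the kinesins follows their known roles and was made after the values were seen.

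**Figure D4:**
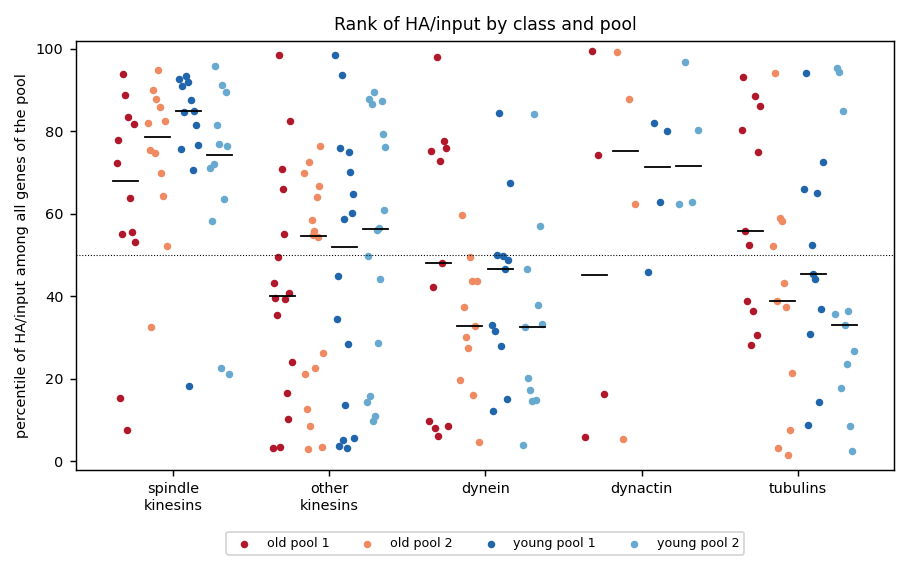
Percentile of HA/input (log2(HA CPM + 1) minus log2(input CPM + 1)) among all genes of a pool, for 5 classes of members; each point is 1 gene in 1 pool and black bars are class medians. The medians of the spindle kinesins lie between 68.1 and 84.9 in the 4 pools, and those of dynein genes between 32.6 and 48.1.

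Among 35 regulators listed in HA (such as tubulin-modifying enzymes, severing proteins and spindle assembly factors), 3 were higher and 3 lower in old oocytes at an unadjusted p under 0.05 (4.28% and 10.5% of all genes), and 0 passed the adjustment in limma. In TE, 0 of 33 were higher and 3 were lower, namely Tacc1, Hdac6 and Ttll1 (2.33% and 4.23% of genes). In input, 1 of 37, Tacc1, was higher and 0 were lower. Tpx2, which activates Aurora A on the spindle, had 575 and 843 CPM in old and 338 and 254 CPM in young HA (limma adjusted p = 0.299). The study used Tpx2 as a control without a significant age difference in its RNA-Seq, and found none in Tpx2 reporters. Hdac6, a tubulin deacetylase, had 0.0475 and 0 CPM in old and 15.7 and 11.4 CPM in young HA. Of 10 dynein adaptors in the HA table, 1 (Hook1) was higher and 0 were lower, whereas in input 0 of 12 were higher and 3 were lower (2.71% and 3.48% of genes). In TE, 1 of the 10 adaptors (Hook2) was higher and 0 were lower.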

How the data were processed

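RNA-Seq of 8 libraries (4 pools, HA and input of each) was used. The authors trimmed reads with Trimmomatic 0.36, aligned them with HISAT2 to GRCm38, counted them per gene with HTSeq without strand and deposited a signal table per fraction, CPM after TMM in edgeR. Every value was a whole multiple (tolerance 0.01) of 1 read, so reads were recovered (100% of values). Reads carry no molecular identifiers, so intervals cover counting error only.

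Ages were compared with limma 3.58.1 (lmFit, eBayes with trend, two-sided) on log2(CPM + 1), and likewise for TE, with p-values adjusted (Benjamini-Hochberg) across every gene tested. For TE, 3 forms of the prior variance were run and their counts seen. The form first fitted, a trend on mean TE, was kept as the main one, and the other 2 are given as alternatives. DESeq2 1.42.0 and edgeR 4.0.16 on recovered reads, other scalings, pseudocounts, filters and left-out pools were alternatives. The tests were tested on simulated data. CPEs and shared windows came from GENCODE M21 (R 4.3.3, Python with pandas and Biopython).

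Named genes were, per class, those with the highest mean input, spindle motors listed by name, the 3 smallest p per direction, and genes with at most 3 reads in one age. Other genes given, among them Dctn6 and Dynlt3 in HA, and which differences are printed, were chosen after their values were seen. The members and lists were chosen with earlier results of these data known. Kif1bp, a kinesin-binding protein, matched the rule and was counted among the others. The study describes its 2 samples per age as biologically independent, and p-values measure the spread between these pools. Pools with the same replicate number share only that number.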

Additional observations from a re-analysis of the deposited data

Results flagged for a closer look

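Klc1 was flagged because TE, relative to the median of its pool, was above 0 in both old pools and below 0 in both young pools. The difference between the ages was 3.54 on the log2 scale, with 1.30 and 2.16 in old and -0.01 and -3.61 in young pools. In limma it had an unadjusted p of 0.0572 and an adjusted p of 0.724, so it did not pass the threshold. The difference in TE (not relative to the median) was 5.25 without the first young pool and 1.64 without the second. The span of Klc1 overlaps Xrcc3 on the other strand, and reads were counted without strand.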

How the results depend on the processing

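Of the recomputed counts and medians that answer a comparison, 169 kept to within the limits set for them and 34 moved. Among the other recomputed values (counts by direction and single genes), 287 kept, 39 moved, 9 came to pass the threshold and 4 changed sign. In DESeq2 on recovered reads, 1 member passed an adjusted p of 0.05 in input (Mapre3) and 2 in HA, 2 members had an unadjusted p under 0.05 in input, and the motor median in HA was 0.41. In edgeR's likelihood ratio test 1 passed in HA (Dync1li2), and in its quasi-likelihood test 0 did in either table. At an unadjusted p under 0.05 in HA, the count was 4 with a filter of at least 10 CPM in 2 libraries, 4 with a pseudocount of 5 CPM and 2 after quantile normalization. The 1 higher and 6 lower members became 2 and 2 with that filter, 1 and 3 with that pseudocount, and 2 and 0 after quantile normalization. They became 4 and 6 both in DESeq2 and with the libraries rescaled to the median log2 ratio. The filter left 45 of the 62 members in HA and removed Dynll1, Dync1li2, Dctn6 and Kif27, which were among the 6. In TE the count at an unadjusted p under 0.05 was 4 with the libraries rescaled to the median log2 ratio. The motor median in TE was -0.078 with that scaling, -0.72 with the same sum, -0.23 after quantile normalization, and -0.41 and -0.054 with pseudocounts of 0.1 and 5 CPM. The median TE percentile of motors in old pools was 53.3 with a pseudocount of 0.1 CPM and 53.7 after quantile normalization. Reversed HA differences were Kif23 (-0.010) and Kif14 (-0.049) after quantile normalization and Kif4 after it (-0.22) and with the same sum (-0.15). Kif4 was also 0.19 without the first young pool and 0.80 without the second, and Kif14 was 0.01 with the same sum. The causes were not tested.

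Leaving out each pool in turn, the members at an unadjusted p under 0.05 numbered 1 to 7 in input, 5 to 16 in HA and 0 to 8 in TE. In HA, 5 were higher and 10 lower without the first old pool, and 10 higher and 6 lower without the second. At an adjusted p under 0.05 they numbered 0 to 4 in HA, with Kif17, Mapre2 and Tuba4a passing without the first old pool and Dctn6, Dync1li2, Dynll1 and Kif27 without the second young pool. A lone pool was then assumed to vary like the others. The tubulin median ranged from 0.044 to 0.51 in input and from -1.01 to 0.54 in TE, and the motor median in TE from -0.15 to -0.0033. The 3 forms of the prior variance for TE gave 199 higher and 361 lower genes at an unadjusted p under 0.05 (trend on mean TE, the main form), 254 and 300 (trend on the mean level of HA and input) and 148 and 496 (no trend). The latter pair was added after seeing the data. With the level trend the members called were Mapre2, higher, and Dynlt3, lower, so that Kif15 was no longer under 0.05, and with no trend they were Dynlt3 and Kif15. No member passed the adjustment in any form. With a replicate block, 9 members had an unadjusted p under 0.05 in HA (5 higher and 4 lower), 2 in TE and 1 in input, and 0 passed the adjustment in each. Deviations of pools with the same number correlated at 0.027 in input and 0.079 in HA, so the numbers were not taken as pairs.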
